A study of Rattus norvegicus with 77 samples.

Results

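The tektins and the testis-specific serine/threonine kinases were described here in the RNA of rat cauda epididymal sperm. The 10 genes were chosen by name (Tekt1, Tekt2, Tekt3, Tekt4, Tekt5, Tssk1b, Tssk2, Tssk3, Tssk4 and Tssk6), and each was represented by 1 probe set among the 29214 of the array. Each of the 77 arrays carried sperm RNA of 1 adult Fischer 344 rat. The rats had received 2,5-hexanedione (HD), a Sertoli cell toxicant, in the drinking water at 0.33% for 3 months, or water alone. Sperm were collected at the end of exposure (HD, n = 19; water, n = 20) or after a further 3 months without toxicant (HD-recovery, n = 20; water-recovery, n = 18). All samples had been treated with a buffer that lyses somatic cells. Values are log2 intensities, and a level on one probe set is not set against the level on another.

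Tektins are filament proteins that line the inside of the doublet microtubules of cilia and sperm flagella. They are made late in spermatogenesis, when the spermatid builds its axoneme. The Tssk kinases are made almost only after meiosis and act in spermatid remodelling and in sperm function, and loss of several of them makes male mice infertile. The mature sperm nucleus is largely silent, and much of the RNA in cauda sperm is held to remain from transcription before that arrest. The study also raises the possibility that Sertoli or epididymal cells pass transcripts to sperm.

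The promoters of Tekt1, Tekt2, Tekt3 and Tekt4 are shown because these genes varied together across the arrays, as described below. RefSeq promoter windows in the GRCr8 build, from 250 bases before to 50 bases after the annotated start, were found for 9 of the 10 genes, all but Tekt5. Capitals mark GTTGC on either strand (GCAAC when it lies on the other one), the unit repeated in the X-box, an inverted repeat that the RFX factors of ciliary genes bind.
Tekt1, chr10:57479072-57479371, minus strand: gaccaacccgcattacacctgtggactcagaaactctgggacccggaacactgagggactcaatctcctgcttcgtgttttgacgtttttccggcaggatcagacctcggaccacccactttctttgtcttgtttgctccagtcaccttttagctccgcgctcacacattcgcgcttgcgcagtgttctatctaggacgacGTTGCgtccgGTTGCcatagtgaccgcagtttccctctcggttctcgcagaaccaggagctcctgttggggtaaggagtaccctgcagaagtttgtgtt
Tekt2, chr5:143907675-143907974, minus strand: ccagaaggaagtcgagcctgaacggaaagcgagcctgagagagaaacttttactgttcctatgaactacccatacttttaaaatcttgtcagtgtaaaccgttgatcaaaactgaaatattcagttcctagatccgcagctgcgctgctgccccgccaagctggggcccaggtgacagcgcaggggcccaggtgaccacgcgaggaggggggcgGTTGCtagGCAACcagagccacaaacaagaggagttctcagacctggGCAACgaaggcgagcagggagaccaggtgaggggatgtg
Tekt3, chr10:48228609-48228908, plus strand: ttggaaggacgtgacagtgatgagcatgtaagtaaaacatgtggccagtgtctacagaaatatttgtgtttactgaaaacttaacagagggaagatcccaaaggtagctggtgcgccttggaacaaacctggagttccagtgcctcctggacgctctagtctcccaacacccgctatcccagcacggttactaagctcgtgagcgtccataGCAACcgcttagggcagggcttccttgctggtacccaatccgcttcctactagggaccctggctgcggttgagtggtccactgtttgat
Tekt4, chr10:14992034-14992333, plus strand: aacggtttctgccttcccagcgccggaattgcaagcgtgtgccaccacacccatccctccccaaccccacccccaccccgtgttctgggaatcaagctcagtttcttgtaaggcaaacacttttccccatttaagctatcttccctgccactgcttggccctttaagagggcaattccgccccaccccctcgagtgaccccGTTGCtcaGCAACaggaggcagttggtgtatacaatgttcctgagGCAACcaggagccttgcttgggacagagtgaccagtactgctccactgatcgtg
All 4 tektin windows held GTTGC and none of the 5 kinase windows did, against 35.1% of 33469 promoter windows of the same length. The longer GGTTGC, which contains GTTGC, was likewise in the 4 tektin windows and in 12.4% of all windows. The full inverted repeat GTTGCNNNGCAAC was in the windows of Tekt2 and Tekt4 and in 0.278% of all windows. It began at position -36 in Tekt2 and at -49 in Tekt4, with the annotated start as position 0.

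Tssk2 and Tssk1b are neighbours on chromosome 11, on the same strand, and their windows are shown because the genes lie side by side yet varied differently across the arrays. Capitals mark TGACTTCA on either strand (TGAAGTCA on the other), an octamer resembling the cAMP response element.
Tssk1b, chr11:96596590-96596889, minus strand: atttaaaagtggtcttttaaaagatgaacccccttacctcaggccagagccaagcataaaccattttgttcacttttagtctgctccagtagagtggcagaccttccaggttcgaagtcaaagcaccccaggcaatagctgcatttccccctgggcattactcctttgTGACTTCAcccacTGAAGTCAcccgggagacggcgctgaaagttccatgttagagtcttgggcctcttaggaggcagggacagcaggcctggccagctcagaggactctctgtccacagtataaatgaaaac
Tssk2, chr11:96592170-96592469, minus strand: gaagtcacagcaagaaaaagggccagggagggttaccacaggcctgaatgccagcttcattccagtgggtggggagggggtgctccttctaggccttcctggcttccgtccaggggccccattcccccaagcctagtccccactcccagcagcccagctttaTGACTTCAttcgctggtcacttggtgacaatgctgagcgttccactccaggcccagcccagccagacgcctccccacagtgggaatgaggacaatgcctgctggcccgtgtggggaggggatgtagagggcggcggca
Among the 9 windows this octamer was in those of Tssk1b and Tssk2 only, and it was in 1.73% of all windows. The cAMP response element itself, TGACGTCA, was in none of the 9 windows and in 1.83% of all windows. The letters searched were chosen with these sequences in view, so the matches are a description and not a binding site.

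No tektin and no kinase passed the threshold between the arrays labelled HD and those labelled water (limma, Storey q below 0.05). Of the 10 genes 0 were called, where 0.472% of all probe sets were. Differences are given as labelled HD minus labelled water, which runs opposite to the direction the study states for its altered transcripts. Clusterin (Clu), for example, was higher by 1.11 (SE 0.25, q = 0.022) in the arrays labelled HD. The largest differences among the genes were those of Tekt4, at 0.46 (SE 0.17, 95% interval 0.13 to 0.80, p = 0.0078, q = 0.28), and Tekt2, at 0.46 (SE 0.21, interval 0.03 to 0.89, p = 0.038, q = 0.55). Tekt5 and Tssk3 lay the other way, Tekt5 at -0.32 (SE 0.18, interval -0.68 to 0.04, q = 0.69) and Tssk3 at -0.31 (SE 0.14, interval -0.59 to -0.02, q = 0.53). Over the 10 genes 7 differences were above 0 and 3 below, with a median of 0.16, where the median over all probe sets was 0.01. Unadjusted p was below 0.05 for 4 of the 10, and for 8.30% of all probe sets. The Benjamini-Hochberg adjustment likewise called 0 of the 10 in this and each of the other comparisons over all arrays. In such bulk samples, fewer cells of a type and less RNA per cell cannot be told apart.

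Tekt4, a flagellar tektin needed for a normal beat of mouse sperm, ranged from 6.82 to 7.52 (median 7.06) on the water arrays. On the HD arrays it ranged from 6.88 to 10.13 (median 7.35). The groups overlapped, but 17 of the 19 HD arrays lay above the water median and 6 lay above the highest water array. Tekt2, which is needed for dynein arm assembly in mouse sperm, ranged from 6.99 to 7.99 (median 7.38) on water arrays and from 7.05 to 11.37 (median 7.53) on HD arrays. Here 14 of 19 HD arrays lay above the water median and 3 above the highest water array.

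Tekt3, which supports progressive motility in mouse sperm, ran from 5.99 to 6.60 (median 6.31) on water arrays and from 6.03 to 8.34 (median 6.47) on HD arrays. Its difference was 0.22 (SE 0.11, q = 0.61), and 17 of 19 HD arrays lay above the water median. Tekt1, the tektin shared with many motile cilia, ran from 5.70 to 6.72 (median 6.07) on water arrays and from 5.58 to 8.82 (median 6.15) on HD arrays. Its difference was 0.26 (SE 0.17, q = 0.79). In both genes HD replicates 5 and 7 were the only HD arrays above the highest water array.

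Tekt5, a tektin of the sperm flagellum, had a different shape. It ranged from 7.25 to 8.50 (median 7.76) on water arrays and from 6.98 to 10.21 (median 7.32) on HD arrays. It was lower than the water median on 16 of 19 HD arrays and lower than every water array on 9, while the highest single value of all 77 arrays was also an HD array, replicate 5. Without that 1 array the difference was -0.47 and passed the threshold (q = 0.024). The share of all probe sets called without it is not given here, so the call cannot be named particular to Tekt5.

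Among the kinases, Tssk3, a spermatid kinase, ranged from 7.78 to 9.24 (median 8.33) on water arrays and from 7.41 to 9.22 (median 8.11) on HD arrays. It was lower than the water median on 14 of 19 HD arrays and lower than every water array on 5. Tssk4, a kinase reported to act on an outer dense fibre protein and on Creb, ranged from 7.62 to 8.07 (median 7.91) on water arrays and from 7.81 to 9.21 (median 8.00) on HD arrays. Its difference was 0.19 (SE 0.08, interval 0.03 to 0.35, p = 0.020, q = 0.43), and 5 HD arrays lay above every water array.

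Tssk1b and Tssk2, kinases that share the spermatid substrate Tsks, and Tssk6, which is needed for chromatin condensation in mouse sperm, differed by 0.12 (SE 0.07), 0.07 (SE 0.13) and -0.06 (SE 0.19). Tssk1b ran from 6.41 to 7.04 (median 6.61) on water arrays and from 6.39 to 7.68 (median 6.75) on HD arrays. Tssk2 ran from 7.00 to 8.09 (median 7.59) on water arrays and from 7.04 to 9.52 (median 7.52) on HD arrays. For Tssk6 the water arrays spread wider, from 8.27 to 10.75 (median 9.41), than the HD arrays, from 8.39 to 10.22 (median 9.30). The interval of the Tssk6 difference, -0.44 to 0.32, leaves room for a change of either sign, and that of Tssk2 ran from -0.20 to 0.33.

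**Figure D1:**
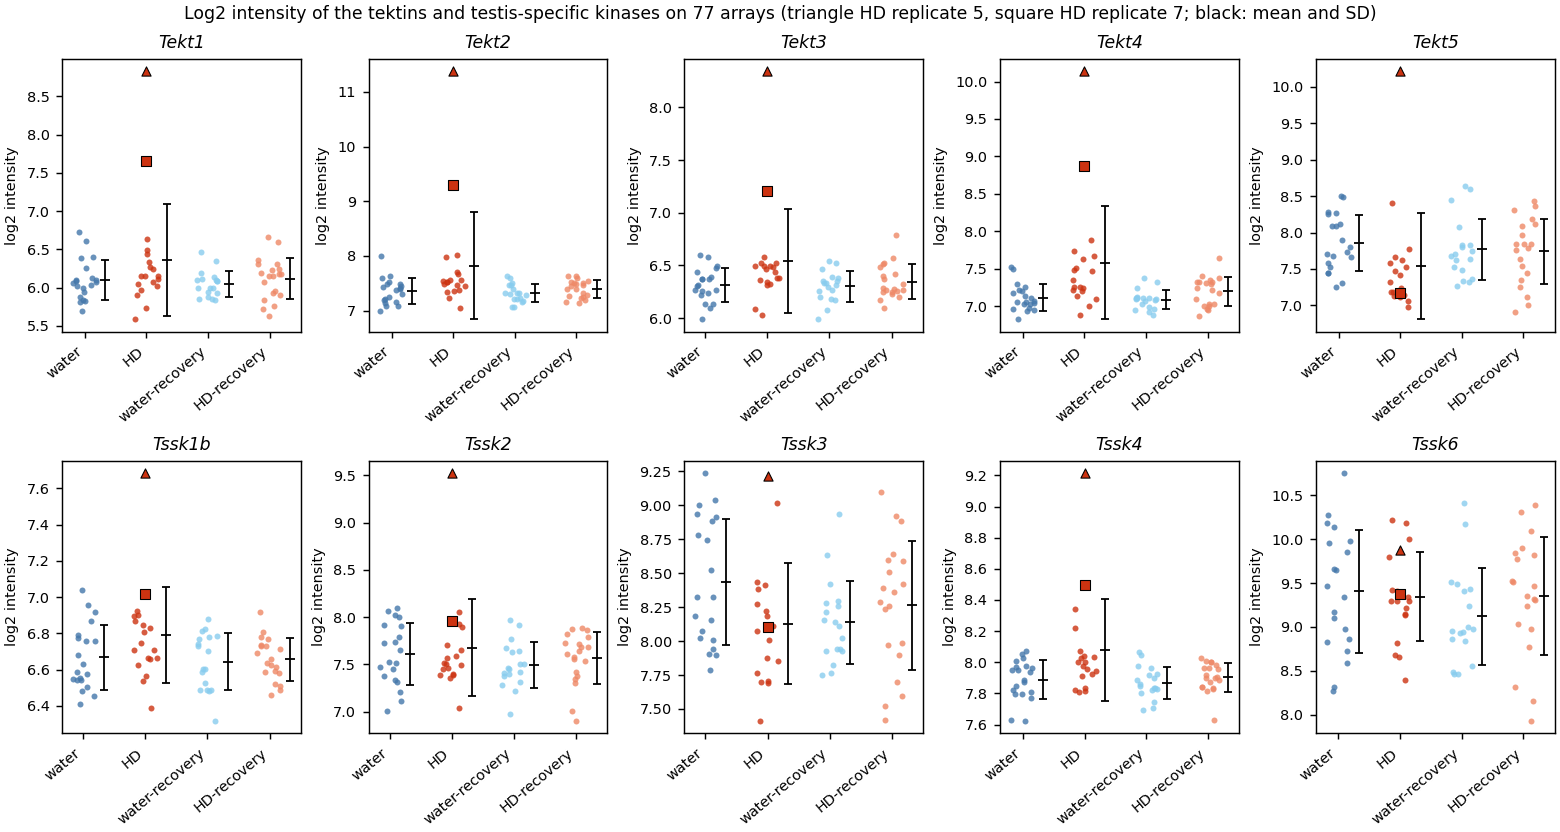
Log2 intensity (vertical axes, scaled per gene) of the 5 tektins and 5 testis-specific kinases on each of 77 arrays, by group, with group means and SD in black. HD replicate 5 (triangle) is the highest of all arrays for 8 genes, and HD replicate 7 (square) is next for Tekt1, Tekt2, Tekt3, Tekt4 and Tssk4.

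Much of the HD spread came from a pair of arrays. HD replicate 5 held the highest value of all 77 arrays for 8 of the 10 genes, the exceptions being Tssk3 (rank 2) and Tssk6 (rank 16). That array had the lowest median correlation with its group of the 77 arrays (0.83). How many of all probe sets were highest on it was not counted, so the 8 of 10 cannot be called particular to these genes. HD replicate 7 was the second highest for 5 genes, Tekt1, Tekt2, Tekt3, Tekt4 and Tssk4. These were the only 2 arrays of any group to lie above every water array in all of Tekt1, Tekt2, Tekt3 and Tekt4.

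On HD replicate 5, Tekt2 stood at 11.37 against a median of 7.52 over the other 17 HD arrays, 14.4-fold higher. Tekt5 was 7.40-fold higher there, Tekt4 7.32-fold and Tekt1 6.39-fold. Among the kinases the excess on that array ran from 0.58 on the log2 scale for Tssk6 to 2.02 for Tssk2, and it was 1.90 for Tekt3. HD replicate 7 was 3.41-fold higher in Tekt2, 3.04-fold in Tekt4 and 2.85-fold in Tekt1. Its Tekt5, at 7.17, ranked 69 of 77, so the tektins did not move as one on this array.

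Most spermatocyte markers were high along with these genes on HD replicate 5, while the Sertoli cell markers were split. Of 9 spermatocyte markers 7 were above every one of the other 17 HD arrays, and their mean was 7.59 against 5.90 to 6.19. The synaptonemal complex gene Sycp2 stood at 9.05 there against at most 6.01, and the meiotic chromosome gene Hormad1 at 10.02 against at most 7.26. Of 9 Sertoli cell markers 5 were above the other 17 arrays, Clu (11.30), Aard (10.31), Cst12 (8.61), Wt1 (7.53) and Gata4 (6.98). The other 4 were below them, Amh (6.01), Rhox5 (6.86), Inhbb (6.71) and Fshr (6.21). The list mean was 7.84 against 6.86 to 7.07. Clu was above the highest water array on 12 of the 19 HD arrays. The sperm and spermatid list (13 genes, mean 11.6 against 9.97 to 11.5) had 3 genes above that range, and the leukocyte list (18 genes, mean 7.78 against 7.41 to 8.56) had 1. The ciliated cell list (5 genes) had a mean of 6.87 against 6.35 to 6.78, with 2 genes above the others and 2 below. Those above were Foxj1 (7.65 against at most 7.60) and Cfap126 (10.18 against at most 8.88), which is also among the axoneme partners described below. This array also stood apart from its group in its correlation with the other arrays over all probe sets, as 4 of 19 HD arrays did. How many of all probe sets lay above the other 17 HD arrays there was not counted.

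HD replicate 7 did not stand apart in that sense, and its marker values were closer to those of the group. Its spermatocyte mean was 6.19, at the top of the range of the other 17 HD arrays, with 1 of 9 genes above them (Sycp2, 6.36). Its Sertoli mean was 6.92, with 0 of 9 genes above the others. Its sperm and spermatid mean was 11.2, within the range of the other 17 HD arrays (9.97 to 11.5), with 2 of 13 genes above them. These were Tnp1, a transition protein of spermatid chromatin (12.04 against at most 11.66), and Ldhc, the germ cell lactate dehydrogenase (9.41 against at most 8.91). The ciliated cell list had a mean of 6.99 against 6.35 to 6.78, with 2 of 5 genes above the others, Foxj1 (7.65 against at most 7.60) and Cfap126 (9.67 against at most 8.88). Cfap126 is also an axoneme partner. Of the remaining genes, Sntn (5.25) lay below the median of the other 17 HD arrays (5.53). Dynlrb2 (5.62, median 5.44) and Tppp3 (6.77, median 6.20) lay above it. The part of these cell types in the tektin values was not tested.

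**Figure D2:**
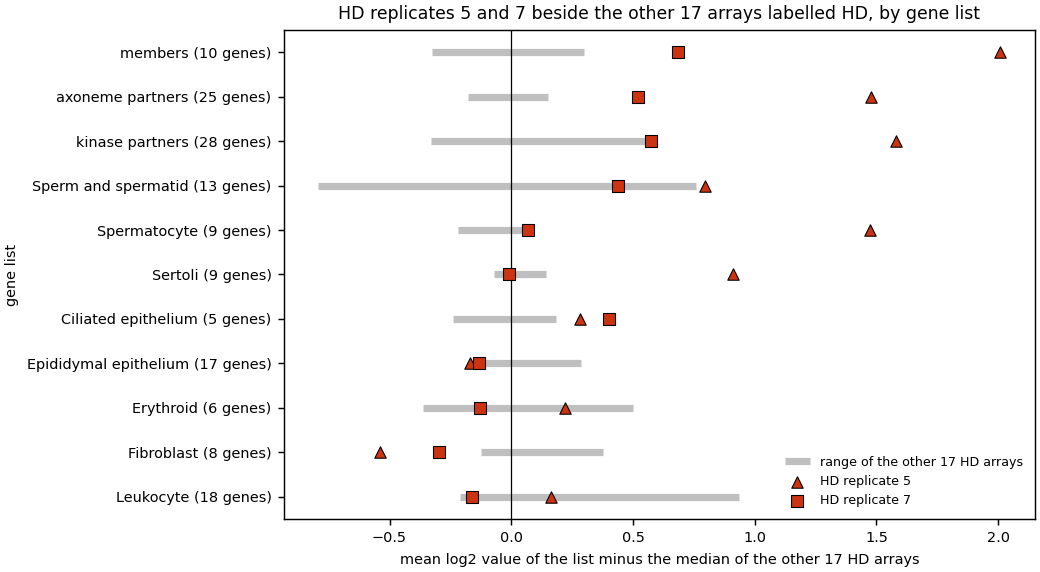
Mean log2 value of each gene list on HD replicate 5 (triangle) and HD replicate 7 (square), minus the median of the other 17 HD arrays, whose range is the grey bar. Cfap126 is in both the ciliated cell list and the axoneme partner list. On replicate 5 the Sertoli list was split, with 5 of 9 genes above the other arrays and 4 below. Replicate 5 lies above the bar for the tektins and kinases, their partner lists, spermatocyte, Sertoli and ciliated cell markers and narrowly for sperm and spermatid markers, and below it for fibroblast and epididymal markers. Replicate 7 lies above the bar for the tektins and kinases, the axoneme partners and ciliated cell markers (narrowly for the kinase partners) and below it for fibroblast markers (narrowly for epididymal ones), but within or at its end for spermatocyte (6.19) and Sertoli (6.92) markers.

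Without these 2 arrays, a choice made after seeing the data, Tekt5 was called (-0.46, SE 0.12, q = 0.042), as 1 of 10 genes where 0.722% of all probe sets were. The Benjamini-Hochberg adjustment called 0 of the 10 in this fit. The positive differences became smaller, from 0.46 to 0.24 in Tekt4 (SE 0.07, p = 0.0025, q = 0.10), from 0.46 to 0.16 in Tekt2 (q = 0.30), from 0.26 to 0.04 in Tekt1 and from 0.22 to 0.08 in Tekt3. Tssk3 stood at -0.37 (SE 0.14, q = 0.19).

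Leaving out instead the 10 arrays that stood apart from their groups (4 HD, 1 water, 3 HD-recovery, 2 water-recovery) kept HD replicate 7. The fit of HD against water thereby lost 4 HD arrays and 1 water array. In it 7 of the 10 genes were called, where 30.2% of all probe sets were. Tekt2 (0.31), Tekt3 (0.16), Tekt4 (0.37), Tssk1b (0.14) and Tssk4 (0.15) were higher in the arrays labelled HD, and Tekt5 (-0.55) and Tssk3 (-0.44) were lower. By the Benjamini-Hochberg adjustment, which takes no account of the estimated share of unchanged probe sets (0.38 here), 3 of them passed, Tekt4, Tekt5 and Tssk3. By q the same 3 genes were called with the first principal component of the arrays as a covariate, where 5% of all probe sets were, although only Tekt5 and Tssk3 passed the Benjamini-Hochberg adjustment there. They were among the 6 called with array weights, where 17.7% were. These shares are by q, and the share of all probe sets passing the Benjamini-Hochberg adjustment in these fits was not counted. In the HD against water fit without the arrays that stood apart, 16 of 18 leukocyte markers were called lower in HD (list median -0.48). Of 13 sperm and spermatid markers 6 were called lower and 2 higher. Of all 29214 probe sets 3727 were called lower and 5091 higher. The part of these markers in the 7 calls was not tested.

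**Figure D3:**
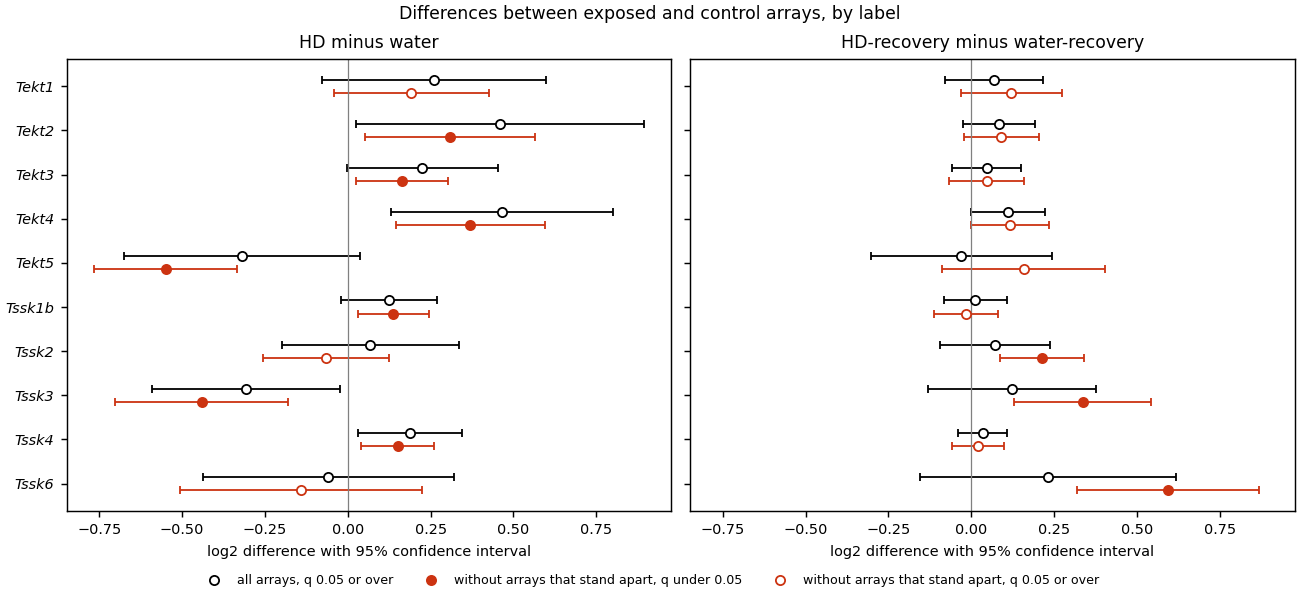
Log2 differences (horizontal axes) with 95% confidence intervals for the 10 genes, HD minus water at left and HD-recovery minus water-recovery at right, over all arrays (black) and without the arrays that stood apart (red), with filled circles for q under 0.05. No black circle is filled, 7 red ones are at left, and at right 3 are, Tssk2, Tssk3 and Tssk6.

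After recovery the exposed and control arrays lay close together. Of the 10 genes 0 were called, and 0% of all probe sets were, with p below 0.05 for 0 of the 10 and for 4.51% of all probe sets. The differences ran from -0.03 (Tekt5) to 0.23 (Tssk6, SE 0.19, p = 0.23), and every q was 1.00. Tekt4 differed by 0.11 (SE 0.06, p = 0.051). It ranged from 6.87 to 7.64 (median 7.23) on HD-recovery arrays and from 6.89 to 7.38 (median 7.09) on water-recovery arrays, with 12 of 20 exposed arrays above the control median. The 95% intervals reached from 0.07 either side (Tssk4) to 0.39 (Tssk6), against 0.15 (Tssk1b) to 0.43 (Tekt2) at the end of exposure.

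No HD-recovery array exceeded every water array in all of Tekt1, Tekt2, Tekt3 and Tekt4. The highest HD-recovery value of Tekt2 was 7.63, where the water-recovery arrays reached 7.63 as well, and those of Tekt1 and Tekt3 were 6.66 and 6.79. Tekt5 ranged from 6.91 to 8.43 (median 7.81) on HD-recovery arrays and from 7.27 to 8.63 (median 7.69) on water-recovery arrays. Tssk6 ranged from 7.93 to 10.39 (median 9.41) and from 8.46 to 10.42 (median 8.97), with 16 of 20 HD-recovery arrays above the water-recovery median. Without the arrays that stood apart, Tssk6 (0.59, SE 0.14, q = 0.0046), Tssk3 (0.34, SE 0.10, q = 0.020) and Tssk2 (0.21, SE 0.06, q = 0.017) were higher in HD-recovery, 3 of 10 where 6.54% of all probe sets were called higher. In that fit 8 of the 13 sperm and spermatid markers were also called higher, with a list median of 0.50, and their part in the kinase values was not tested.

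The difference between both HD effects (no recovery minus recovery) was tested directly. It passed the threshold for 0 of 10 genes and 0% of all probe sets, with an unadjusted p below 0.05 for 1 of 10 and for 3.38% of probe sets. Tssk3 had the smallest p, with a difference of -0.43 (SE 0.19, interval -0.81 to -0.05, p = 0.029, q = 1.00), followed by Tekt4 at 0.35 (SE 0.18, p = 0.053). For Tekt4 it was 0.21 without HD replicate 5 and 0.13 (p = 0.17) without HD replicates 5 and 7. With the 10 arrays standing apart left out, 7 of 10 genes were called where 56.8% of all probe sets were, and 3 of them passed Benjamini-Hochberg adjustment, Tekt5 (-0.71), Tssk3 (-0.78) and Tssk6 (-0.74). The share of all probe sets passing that adjustment was not counted.

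Across time within the exposed rats (HD-recovery minus HD, which shares its arrays with the comparisons above), 0 of 10 genes were called where 0.154% of all probe sets were, and 5 of 10 had an unadjusted p below 0.05, as did 9.55% of probe sets. Tekt2 was at -0.42 (SE 0.16, p = 0.011, q = 0.29), Tekt4 at -0.38 (SE 0.13, p = 0.0033, q = 0.19) and Tssk4 at -0.17 (SE 0.06, p = 0.0054, q = 0.24). Without HD replicate 5 these differences were -0.22, -0.24 and -0.11, and without HD replicates 5 and 7 they were -0.12, -0.16 and -0.08. In Tssk4 18 of 20 HD-recovery arrays lay below the HD median. Between both water groups all 10 differences were below 0, from -0.02 to -0.29, and 0 genes and 0% of probe sets were called, with an unadjusted p below 0.05 for Tssk3 alone. The lowest of them, Tssk3 and Tssk6 at -0.29 each (SE 0.14 and 0.19), were of the size seen for Tssk3 between HD and water.

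**Figure D4:**
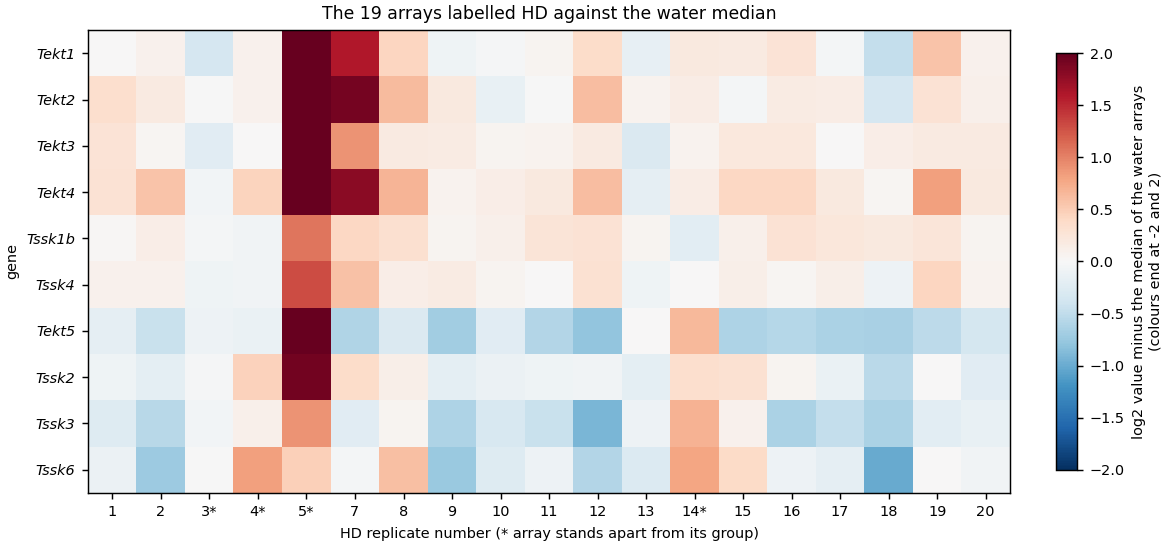
The log2 value of each gene on each of the 19 HD arrays minus the median of the water arrays (colour), with a star at arrays that stand apart from the group. Beside replicates 5 and 7, most columns are pale red in Tekt4 and blue in Tekt5, where 16 of 19 values fall under the water median.

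The spread of the genes over rats was compared by the mean absolute deviation from the group median (permutation test of 100000 resamples, two-sided, 20 tests). The HD arrays spread 3.25-fold wider than the water arrays in Tekt4 (0.43 against 0.13, p = 0.012, Benjamini-Hochberg adjusted p = 0.23), 2.47-fold in Tekt2 (p = 0.28) and 2.10-fold in Tekt1 (p = 0.21). After recovery the spread of Tekt4 was 0.16 in the exposed and 0.09 in the control arrays (p = 0.034, adjusted p = 0.34). Without HD replicates 5 and 7 the HD arrays spread 1.67-fold wider in Tekt4 (p = 0.11) and 1.03-fold in Tekt1, and in Tekt2 the log2 ratio was -0.11, so that the water arrays spread slightly wider. None of the 20 comparisons passed 0.05 after adjustment, and 2 had an unadjusted p below it, both of Tekt4.

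Across the 77 arrays, with group means removed, the 10 genes fell into sets that cut across the families. Tekt1, Tekt2, Tekt3 and Tekt4 varied together, with Pearson r of 0.79 to 0.89 over their 6 pairs. Tekt5 varied with the kinases Tssk2, Tssk3 and Tssk6, with r of 0.64 to 0.85 over 6 pairs. Between both sets the median r was 0.42. Tssk1b and Tssk4 went with the first set (r from 0.61 to 0.77) more than with the second (r from -0.08 to 0.42). These values are descriptions, since the arrays share labelling, scale and RNA composition.

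The first set leaned on HD replicates 5 and 7. Without them its r fell to 0.29 to 0.63 (median 0.50), and Tekt2 with Tekt4 ran from -0.09 in the 18 water-recovery arrays to 0.66 in the 20 water arrays. Tssk1b and Tssk4 likewise fell to r of 0.11 to 0.41 with these tektins (median 0.28, from 0.68). The second set did not, with r of 0.66 to 0.86 (median 0.81) without both arrays. Tekt5 with Tssk3 had r of 0.83 to 0.93 within each of the 4 groups. The neighbours Tssk1b and Tssk2 had r of 0.28 over all arrays and -0.16 without both.

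**Figure D5:**
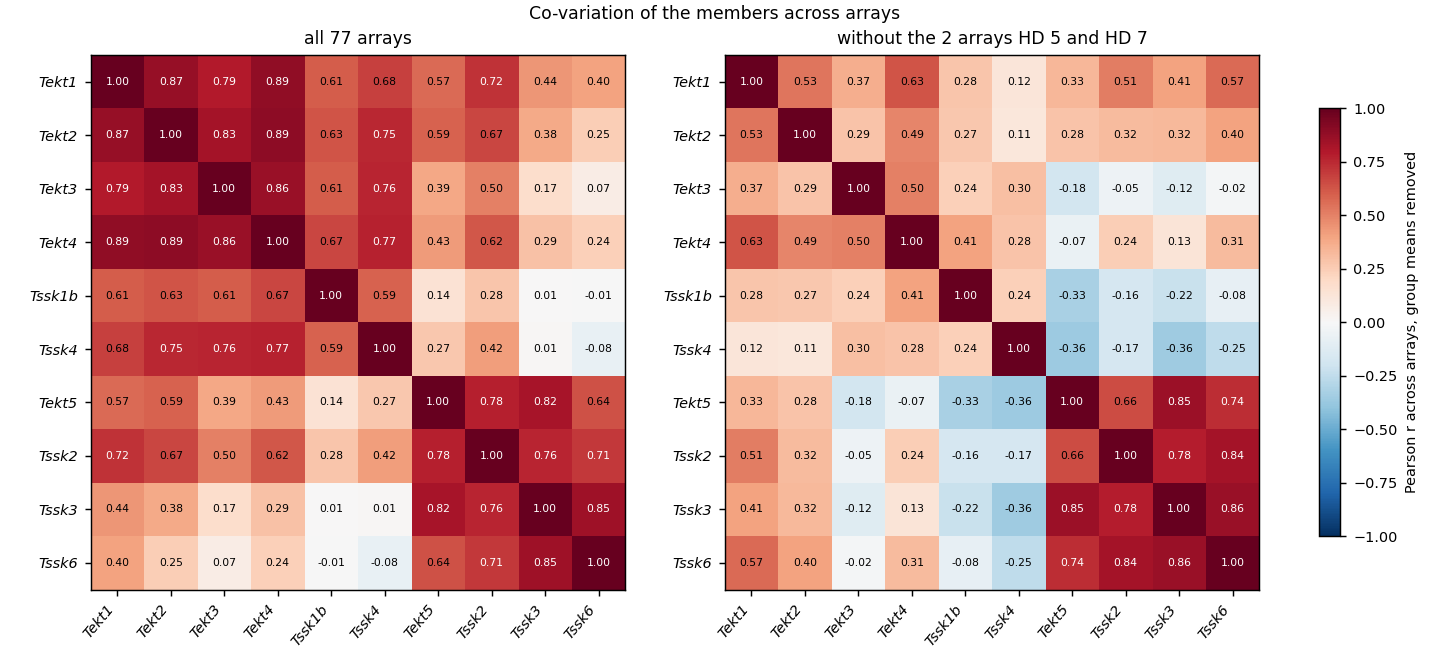
Pearson r (colour and number) between the genes across arrays with group means removed, over all 77 arrays at left and without HD replicates 5 and 7 at right. The block of Tekt5, Tssk2, Tssk3 and Tssk6 stays between 0.66 and 0.86 at right, whereas that of Tekt1, Tekt2, Tekt3 and Tekt4 drops to between 0.29 and 0.63.

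The second set followed the main axis of variation among the arrays. The first principal component held 41.9% of the variance within groups. Its r was 0.85 for Tekt5, 0.80 for Tssk2, 0.86 for Tssk3 and 0.72 for Tssk6. It was lower for the other genes, at 0.45 for Tekt1, 0.41 for Tekt2, 0.19 for Tekt3 and 0.31 for Tekt4. For Tssk1b it was -0.02 and for Tssk4 0.09. The mean of the sperm and spermatid markers had r of 0.93 with Tssk6 and 0.87 with Tssk3. With Tekt1, Tekt2, Tekt3 and Tekt4 it had r of 0.50, 0.36, 0.18 and 0.38. The leukocyte mean had r of 0.69 with Tssk3 and 0.57 with Tekt5, and of -0.42 with Tssk1b. It had r of 0.55 with Tssk6 and 0.44 with Tssk2. All 4 genes of the second set had higher r with the mean of the red blood cell markers. These were 0.60 for Tekt5, 0.56 for Tssk2, 0.72 for Tssk3 and 0.70 for Tssk6. With the sperm and spermatid mean, r was 0.64 for Tekt5 and 0.72 for Tssk2, so the second set varied with several marker lists. The 18-gene leukocyte mean had a median of 7.62 (range 7.41 to 8.56) on HD arrays and 8.14 (7.53 to 8.61) on water arrays. Of these 18 genes 5 were called lower in HD and 0 higher, and 17 differences were below 0. Of all 29214 probe sets 133 were called lower in that fit. The count called lower was 12 with quantile normalization and 16 once the arrays standing apart were left out. The counts over all probe sets rose as well, to 338 and 3727 called lower. The part of leukocyte, red blood cell or spermatid RNA in the Tekt5 and Tssk3 values was not tested.

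The genes with the most similar pattern differed between both sets in the same way. For Tekt1 and Tekt4 the nearest of all genes outside the families was Spesp1, an acrosomal sperm protein gene (r = 0.93 for each, n = 77 arrays), followed by Cimip4 for Tekt1 (0.92) and Iqub for Tekt4 (0.92). Tekt2 was nearest to Fancd2os (0.92) and Tsbp1 (0.92), Tekt3 to Fndc11 (0.86) and Spata31 (0.85), and Tssk4 to Spata31 (0.80) and Ccdc116 (0.80). For Tssk3 and Tssk6 the nearest was Rangap1, the GTPase-activating protein of Ran (0.94 and 0.95), followed by Ppp4r1 (0.93) and the hexokinase gene Hk1 (0.94). Tekt5 was nearest to Arih1 (0.92) and Rad18 (0.90), Tssk2 to Desi1 (0.90) and Ap2b1 (0.89), and Tssk1b to Aox3 (0.73) and Vwa5b1 (0.72). Without HD replicates 5 and 7, Rangap1 was again the nearest to Tssk6 (0.96), but the nearest gene changed for the other members. It became Cimip4 for Tekt1 (0.80) and Tekt2 (0.69), Tektl1 for Tekt3 (0.53) and Pabpc2 for Tekt4 (0.78). For Tekt5 it became Bfar (0.91), for Tssk2 Limd2 (0.90) and for Tssk3 Ppp4r1 (0.93). For Tssk1b it became Unc13a (0.63) and for Tssk4 Mmp27 (0.56).

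Partner genes were taken from a pair of lists, one of doublet microtubule and axoneme proteins (25 of 38 measured) and one of proteins that act with the kinases or in the same steps of spermatid development (28 of 31 measured). None of the 53 was called between HD and water, and 11 had an unadjusted p below 0.05. Over all probe sets 0.472% were called and 8.30% had such a p. The 53 count H2ax and H2afx, a newer and an older symbol of the same histone gene, as separate entries with a probe set each. Their differences were 0.003 and -0.12, and H2afx was among the 11. In the axoneme list 19 differences were above 0 and 6 below, with a median of 0.12, and in the kinase list 21 and 7, with a median of 0.07, where the median over all probe sets was 0.01. The balance of the kinase list turned without HD replicates 5 and 7, to 9 above and 19 below (median -0.05). It also turned once the arrays standing apart were left out, to 10 and 18 (median -0.07). That of the axoneme list was 16 to 9 (median 0.06) and 19 to 6 (median 0.11) under these settings. The smallest p on the higher side were those of Akap4, the main anchoring protein of the fibrous sheath (0.78, SE 0.24, q = 0.16, with 14 of 19 HD arrays above the water median), and the tektin-like gene Tektl1 (0.36, SE 0.12, q = 0.19). On the lower side they were those of Creb1 (-0.20, SE 0.09, q = 0.47) and Cfap141 (-0.32).

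After recovery 0 of the 53 partner genes were called, and 7 had an unadjusted p below 0.05, where 0% and 4.51% of all probe sets did. The smallest p were those of Akap3, a second fibrous sheath anchor (0.24, SE 0.07, q = 0.72), Akap4 (0.59, SE 0.19, q = 0.73), and, on the lower side, Cfap107 (-0.14, SE 0.04, q = 0.72) and Cfap52 (-0.06). The difference of Akap4 was therefore above 0 at both times, without passing the threshold at either. On HD replicate 5, 23 of the 25 axoneme partners and 22 of the 28 kinase partners were above all of the other 17 HD arrays, and on HD replicate 7, 14 and 13 were. The share of all probe sets above the other 17 was not counted for either array.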

How the data were processed

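The authors hybridised sperm RNA to Affymetrix Rat Gene 1.0 ST arrays and deposited a table of log2 values (2.51 to 14.63), and no source used here gives their background correction or normalization. Per array, the median ran from 6.51 to 6.78. Group labels came from the sample titles. Gene names came from the platform annotation, and only probe sets with a single symbol were named. Members and gene lists were chosen with earlier results of these data known. Named genes were the 10 members, partner genes past the threshold or else the 2 with the smallest p in each direction, and the 2 genes nearest to each member by Pearson r.

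Each pair of groups was fitted on its own with limma 3.58.1 in R 4.3.3 over all 29214 probe sets, as in the study's methods, and the difference of HD effects and the changes over time in a fit of all 4 groups. Storey q-values below 0.05 were called. Arrays stood apart when their median correlation with their group lay over 3 scaled median absolute deviations below the group's. The number of arrays limits the precision. The scripts were tested on simulated data. Alternatives were Benjamini-Hochberg adjustment, centred medians, quantile normalization, array weights, a principal component, only probe sets brighter than the median, a split by replicate number, a replicate block, a joint or separate fit, and arrays left out.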

Additional observations from a re-analysis of the deposited data

How the results depend on the processing

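Centring the arrays, quantile normalization, Benjamini-Hochberg adjustment, only probe sets brighter than the median (7 genes tested), a split by replicate number and a joint or separate fit called 0 of the tektins and kinases in each comparison they were run for. Same-numbered arrays did not deviate together (median r 0.03 over 19 numbers shared by HD and water and 0.04 over 18 after recovery, with 2 and 4 arrays closest to their own number), so the numbers were not taken as a pairing. With the replicate number as a block, 0 of 10 were called in each of the 5 comparisons. The number of genes called rose from 0 to 6 (array weights), 3 (principal component), 7 (without the arrays that stood apart) and 1 (without HD replicates 5 and 7) between HD and water, and to 3 after recovery without the arrays that stood apart. For the difference of the HD effects it was 4, 1 and 7 with weights, the component and without the arrays that stood apart, where 33.7%, 1.22% and 56.8% of all probe sets were called. For HD-recovery minus HD it was 7, 1 and 8, where 45.2%, 4.73% and 57.4% were, and for water-recovery minus water 1 with the component, where 1.08% were. The cause was not tested. Leaving out each array in turn gave 0 to 1 genes between HD and water (Tekt5, without HD replicate 5) and 0 to 0 in the other comparisons. The shares of all probe sets called in those fits are not given here. Partner genes called were 19 between HD and water and 21 after recovery, of 53 each, without the arrays that stood apart (30.2% and 13.1% of all probe sets), and 1 (Cfap141) between HD and water without HD replicates 5 and 7. No spread comparison passed under any of 3 alternatives. Median r among Tekt1, Tekt2, Tekt3 and Tekt4 moved from 0.87 to 0.50 without HD replicates 5 and 7 and to 0.70 without the arrays that stood apart, and between both sets from 0.42 to 0.30 and 0.26.

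Small differences changed sign. Tssk2 between HD and water was -0.042 with weights, -0.066 without the arrays that stood apart and -0.057 without HD replicates 5 and 7. After recovery Tekt5 was 0.080 and 0.16 (weights, without the arrays that stood apart) and Tssk1b -0.017 (without them). In HD-recovery minus HD, Tssk2 was 0.080, 0.13 and 0.013 under the 3 settings. Tekt1 was -0.028 in the difference of HD effects without HD replicates 5 and 7. Between the water groups Tekt3 (0.00433), Tssk1b (0.00376) and Tekt4 (0.0067) turned with weights, Tssk1b (0.010) without the arrays that stood apart and Tssk4 (0.00635) with quantile normalization. Leaving out each array in turn, the difference ranged from -0.035 to 0.10 for Tssk2 and from -0.12 to 0.012 for Tssk6 between HD and water, from -0.067 to 0.020 for Tekt5 and from -0.0066 to 0.026 for Tssk1b after recovery, from -0.11 to 0.032 for Tssk2 in the difference of HD effects, from -0.050 to 0.079 for Tssk6 in HD-recovery minus HD and from -0.033 to 0.0029 for Tekt3 between the water groups. The mean over several probe sets was not run, since each gene had 1.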
